A study of Mus musculus with 8 samples.

Results

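Cre-free myeloid cultures of mouse bone marrow were described in 4 of the 8 RNA-seq libraries of the series, the 2 PARP1 WT and the 2 PARP2 WT libraries. They were chosen by their labels, which give no Cre for either group, and no deletion was compared. The mice were C57BL/6 animals aged 2 months. PARP1 WT mice carried PARP1 flox/flox and PARP2 WT mice PARP2 flox/flox, so both alleles of 1 target gene were floxed but not deleted in every animal, and no group without a floxed gene was included. Marrow cells were strained and grown for 3 days with 40 ng per mL of mouse M-CSF, and the labels call the result immature myeloid cells (IMCs). No sorting of the cultures is described, each library was made from 4 µg of total RNA, and the labels do not say whether replicates of a group came from separate animals or how many animals a culture held. P-values between the lines therefore measure the spread between these libraries, which may be technical. Gene counts summed to 37852450 and 48844494 for PARP1 WT and to 58441153 and 52348498 for PARP2 WT.

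M-CSF is the growth factor of the mononuclear phagocytes. It binds the receptor tyrosine kinase Csf1r on marrow progenitors and keeps monocytes and macrophages alive, dividing and adherent, and with RANKL it takes the same precursors on to osteoclasts. Macrophages are known for large lysosomes, scavenging of lipids and iron, and the transcription factor PU.1, which Spi1 encodes. Granulocytes share PU.1 and many progenitor stages with them, but fill their granules with defensive proteins under the control of C/EBP factors. IMCs are defined in this field by the surface proteins CD11b, which Itgam encodes, and Gr1, an epitope of the Ly6c and Ly6g proteins.

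The 5 genes taken to mark the cultures were all present in all 4 libraries, and by CPM they ran from place 7 to place 3306 of 24062 genes. Levels are given as CPM, the counts of a gene per 1000000 counts of its library, and, where genes are compared with each other, as TPM, which also allow for the length of the exons. Values after ± are SDs over the 4 libraries (n = 4) unless said otherwise. Lyz2, which encodes the lysozyme of macrophages and granulocytes and whose promoter drives LyzM-Cre, lay on chromosome 10 from 117277331 to 117282321 in mm10 and had 5741 and 6421 CPM in PARP1 WT and 9776 and 10859.6 CPM in PARP2 WT. It took place 7 of 24062 genes by CPM. Csf1r, the M-CSF receptor, had 1219 and 1179.6 CPM in PARP1 WT and 1140.2 and 1273 CPM in PARP2 WT and took place 63. Itgam, on chromosome 7 from 128062640 to 128118491, had 915 and 961 CPM in PARP1 WT and 972 and 965 CPM in PARP2 WT and took place 89. These are the surface receptor and the integrin by which the cultures are usually recognised, and their libraries lay close together. Spi1, on chromosome 2 from 91082390 to 91115756, had 183 and 203 CPM in PARP1 WT and 212 and 211 CPM in PARP2 WT and took place 908. Ly6c2, a surface marker of inflammatory monocytes and part of the Gr1 epitope, lay on chromosome 15 from 75108158 to 75111970, had 60.2 and 65.3 CPM in PARP1 WT and 72.5 and 72.2 CPM in PARP2 WT and took place 3306. Ly6g was not analysed here, so the Gr1 side of the label was checked by Ly6c2 alone. Per length the order was Lyz2 at 20464 ± 5797 TPM, Csf1r at 688 ± 35.9 TPM, Itgam at 626 ± 11.4 TPM, Spi1 at 248 ± 12 TPM and Ly6c2 at 81.3 ± 5.33 TPM. Csf1r and Itgam overlapped between libraries on this scale, and the other neighbours in the order did not. The markers named for the cultures were thus all detected, with Ly6c2 far below the macrophage receptor.

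**Figure D1:**
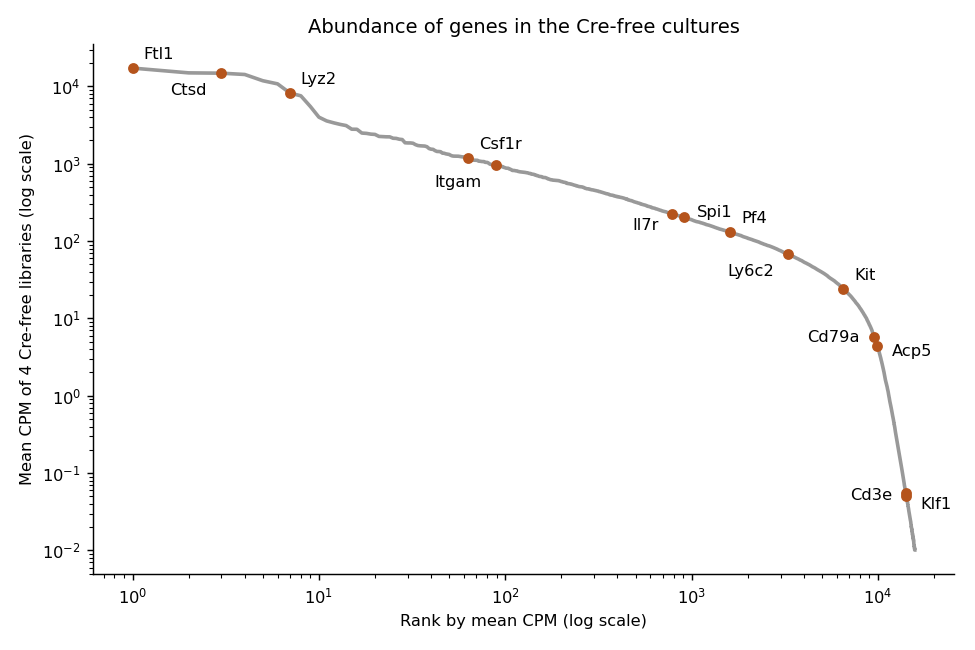
Mean CPM of the 4 Cre-free libraries against the rank of each gene, both on log scales, with 14 genes marked as points on the grey curve of all genes at 0.01 CPM or more. Lyz2 stands at place 7, Csf1r at 63, Spi1 at 908 and Ly6c2 at 3306, while Klf1 and Cd3e lie at the lower right end of the curve.

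The bases before the start of 2 of these markers and of 3 other genes of the lists are printed because PU.1 and C/EBP, whose genes are measured further on, are known to act at the promoters of myeloid genes. Each sequence holds the 250 bases before the start given by RefSeq for GRCm38.p6, 5′ to 3′ on the strand of the gene. Capitals mark a match to 1 of 4 motifs searched on both strands, which were GAGGAA for PU.1, TTGCNNAA for C/EBP, TGANTCA for AP-1, which reads the same on both strands, and GAAA, any 2 bases and GAAA for IRF. No matches overlapped in these windows. Lyz2 (chr10:117282273-117282522, minus strand), Itgam (chr7:128062390-128062639, plus strand), Cd68 (chr11:69666171-69666420, minus strand) and Ctss (chr3:95526536-95526785, plus strand) are macrophage genes, and Ngp (chr9:110419558-110419807, plus strand) is a granule gene.
Itgam: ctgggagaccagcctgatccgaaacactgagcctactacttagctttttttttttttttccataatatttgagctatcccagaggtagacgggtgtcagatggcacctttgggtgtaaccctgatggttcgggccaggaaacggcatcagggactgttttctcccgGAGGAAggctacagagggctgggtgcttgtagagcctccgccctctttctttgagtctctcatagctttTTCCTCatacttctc
Cd68: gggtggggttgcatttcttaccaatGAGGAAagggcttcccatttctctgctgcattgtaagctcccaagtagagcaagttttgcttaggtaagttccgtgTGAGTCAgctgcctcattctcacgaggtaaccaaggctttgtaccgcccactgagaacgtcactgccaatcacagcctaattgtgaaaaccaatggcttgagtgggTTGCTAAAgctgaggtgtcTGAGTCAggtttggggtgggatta
Ctss: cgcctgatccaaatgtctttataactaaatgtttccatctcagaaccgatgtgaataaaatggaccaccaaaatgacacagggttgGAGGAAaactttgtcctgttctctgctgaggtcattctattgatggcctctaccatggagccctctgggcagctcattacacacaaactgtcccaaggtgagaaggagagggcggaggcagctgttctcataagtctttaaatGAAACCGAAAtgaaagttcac
Ngp: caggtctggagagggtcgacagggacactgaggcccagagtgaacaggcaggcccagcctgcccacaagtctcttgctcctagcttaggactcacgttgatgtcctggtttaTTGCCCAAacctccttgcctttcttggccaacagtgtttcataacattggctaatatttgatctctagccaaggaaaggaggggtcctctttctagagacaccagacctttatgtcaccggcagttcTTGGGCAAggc
Lyz2: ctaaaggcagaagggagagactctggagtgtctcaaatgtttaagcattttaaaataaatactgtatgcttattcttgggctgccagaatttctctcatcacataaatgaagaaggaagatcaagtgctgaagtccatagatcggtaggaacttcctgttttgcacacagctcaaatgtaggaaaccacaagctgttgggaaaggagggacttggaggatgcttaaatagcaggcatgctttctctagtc
The window of Itgam held GAGGAA 84 bases before the start and its reverse complement 15 bases before it, counted from the first base of each match. Cd68 held GAGGAA, TTGCNNAA and 2 copies of TGANTCA, Ctss held GAGGAA and the IRF motif, and Ngp held TTGCNNAA once on each strand. The window of Lyz2 held none of the 4 motifs. Over the lists, GAGGAA stood in 7 of the 11 monocyte and macrophage genes with a promoter entry (63.6%). The progenitor, secondary granule and late neutrophil lists were pooled, and these also hold receptors and transcription factors. GAGGAA stood in 12 of their 23 genes with an entry (52.2%), against 23.1% of all 27025 promoter windows of this length. TTGCNNAA stood in 8 of these 23 pooled genes (34.8%) and 2 of the 11 macrophage genes (18.2%), against 9.55% of all windows. In the 100 most abundant protein-coding genes per length, of which 78 had an entry, the shares were 25.6% and 8.97%. A match is a description of the letters and not a bound site, and Csf1r, Spi1, Emr1 and Tyrobp had no entry.

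Of the 24062 genes in the table, 11188 had at least 1 CPM in all 4 libraries, 2094 had at least 100 CPM, 75 had at least 1000 CPM and 7181 had no count in any of the 4. The 10 most abundant genes held 10.3% to 11.7% of the counts of a library, and 712 genes held 50% of them. Protein-coding genes held 98.9% of the counts. The 15 genes with the most reads were Ftl1, Gpnmb, Ctsd, Ctsb, Fth1, Psap, Lyz2, Eef1a1, Actb, Pkm, Lpl, Lgals3, Hspa8, Actg1 and Lrp1.

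Ftl1 had the most reads. It encodes the light chain of the protein that stores iron and had 16106 and 16539.6 CPM in PARP1 WT and 18323 and 18129 CPM in PARP2 WT, and Fth1, the heavy chain, had 11553 and 11780.0 CPM in PARP1 WT and 12355 and 11719 CPM in PARP2 WT. Gpnmb, a membrane glycoprotein of macrophages and osteoclasts, had 13420.4 and 13839 CPM in PARP1 WT and 17572 and 15087 CPM in PARP2 WT. The aspartic protease of the lysosome, Ctsd, had 14164 and 14116 CPM in PARP1 WT and 15853 and 15237 CPM in PARP2 WT. Its cysteine counterpart Ctsb had 13471 and 14037 CPM in PARP1 WT and 15071 and 14526 CPM in PARP2 WT, and Psap, the precursor of the saposins that help to break down sphingolipids, had 10479 and 10126 CPM in PARP1 WT and 11754 and 10839 CPM in PARP2 WT. None of these 6 genes passed the test between the lines given further on, against 2.98% of all genes tested. In all of them but Fth1 both PARP2 WT libraries lay above both PARP1 WT libraries, as in 26.8% of all genes tested. Lpl, the lipoprotein lipase that macrophages secrete, had 2996 and 3185 CPM in PARP1 WT and 4317 and 3838 CPM in PARP2 WT. Lrp1, an endocytic receptor with a long transcript, had 2424 and 2698 CPM in PARP1 WT and 3082 and 2995 CPM in PARP2 WT.

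Per length, short transcripts moved up. The highest 15 protein-coding genes were Ftl1, Ctsd, Lyz2, Psap, Fth1, Eef1a1, Lgals1, Ctsb, Gpnmb, Actb, S100a9, Lgals3, Tmsb4x, Spp1 and S100a4. Ftl1 stood apart at 42518 ± 1731 TPM. Ctsd at 20826 ± 722 TPM and Lyz2 at 20464 ± 5797 TPM came next on this scale, and their order depended on the line. Lyz2 had 14754 and 16389 TPM in PARP1 WT, below Ctsd at 20373 and 20168 TPM, and 23987 and 26724 TPM in PARP2 WT, above Ctsd at 21775 and 20989 TPM. The level of S100a9, a calcium-binding protein that makes up much of the cytosol of neutrophils and is also found in monocytes, was 6749.9 ± 311 TPM per length, next to Actb at 6779 ± 463 TPM. Spp1, which encodes osteopontin, had 5603 ± 688 TPM, and Lgals1 and Lgals3, the galectins of macrophages, had 7815 ± 258 TPM and 6019.9 ± 545 TPM. Ranked among all genes and not the protein-coding ones alone, Lrp1 went from place 15 by reads to place 269 per length, and S100a9 from place 77 to place 12.

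Of 14 lysosomal and granule proteins of phagocytes, all 14 had at least 1 CPM in every library, and together they held 4.74% of the counts. Beside Ctsd, Ctsb and Lyz2 the highest per length were Ctss at 4476 ± 145 TPM, a protease that trims class II chaperones, Ctsz at 2808 ± 119 TPM and the membrane protein Lamp1 at 2539 ± 108 TPM. Lyz1, the neighbouring lysozyme gene that is best known from the gut, had 260.4 and 254 CPM in PARP1 WT and 412 and 465 CPM in PARP2 WT. Lyz1 and Lyz2 are near-identical copies and may share reads, and read sharing was not measured.

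The monocyte and macrophage markers were present as a whole list. All 15 of 15 markers had at least 1 CPM in all 4 libraries, and their sum was 6662 and 6868 CPM in PARP1 WT and 7175 and 7399 CPM in PARP2 WT. Per length the highest were Ctss, Cd68 at 4469.8 ± 204 TPM, a glycoprotein of the macrophage lysosome, and Csf1r. Emr1, the symbol that the table uses for Adgre1 and the gene of the macrophage surface protein F4/80, had 537 and 497 CPM in PARP1 WT and 527 and 534 CPM in PARP2 WT. Mrc1, the mannose receptor, had 552 and 693 CPM in PARP1 WT and 686 and 813 CPM in PARP2 WT. Mertk, a receptor for dying cells, had 35.2 and 38.1 CPM in PARP1 WT and 55.6 and 68.8 CPM in PARP2 WT. The monocyte chemokine receptors Ccr2 and Cx3cr1 had 66.4 to 74.4 CPM and 18.8 to 22.3 CPM. The list median was 120.4 TPM per length.

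Granule genes of the neutrophil line were present beside them. Bulk RNA cannot tell fewer cells of a type from less RNA per cell, so list levels are not shares of cells. Of the azurophil and progenitor genes, 8 of 8 had at least 1 CPM in every library. Mpo, the myeloperoxidase made by promyelocytes, led them with 173 and 200.3 CPM in PARP1 WT and 257 and 218 CPM in PARP2 WT, and Elane, the neutrophil elastase, had 44.5 and 48.8 CPM in PARP1 WT and 63.2 and 61.4 CPM in PARP2 WT. Of the genes of the secondary granules, which form later, 7 of 7 passed the same level. Ngp, the neutrophilic granule protein, had 833 and 982 CPM in PARP1 WT and 1099 and 1017 CPM in PARP2 WT, Ltf, which encodes lactoferrin, had 357 and 380.1 CPM in PARP1 WT and 459 and 401 CPM in PARP2 WT, and Camp, which encodes cathelicidin, had 81.2 and 74.6 CPM in PARP1 WT and 111 and 98.1 CPM in PARP2 WT. Per length the median of this list, 381 TPM, was above that of the macrophage list in each of the 4 libraries. The sums ran the other way, at 4294 ± 433 TPM for this list and 11395 ± 262 TPM for the macrophage list. Of the late neutrophil genes, 9 of 9 analysed passed 1 CPM. Within that list S100a9 at 6749.9 ± 311 TPM and S100a8 at 1967 ± 163 TPM held most of the per-length sum, and these 2 genes are not restricted to neutrophils. Genes of the mature cell were lower. Csf3r, the receptor for G-CSF, had 66.1 to 86.4 CPM, Mmp9, the gelatinase of tertiary granules, 29.4 to 48.8 CPM, and Cxcr2, which guides mature neutrophils, 13.5 to 19.96 CPM.

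**Figure D2:**
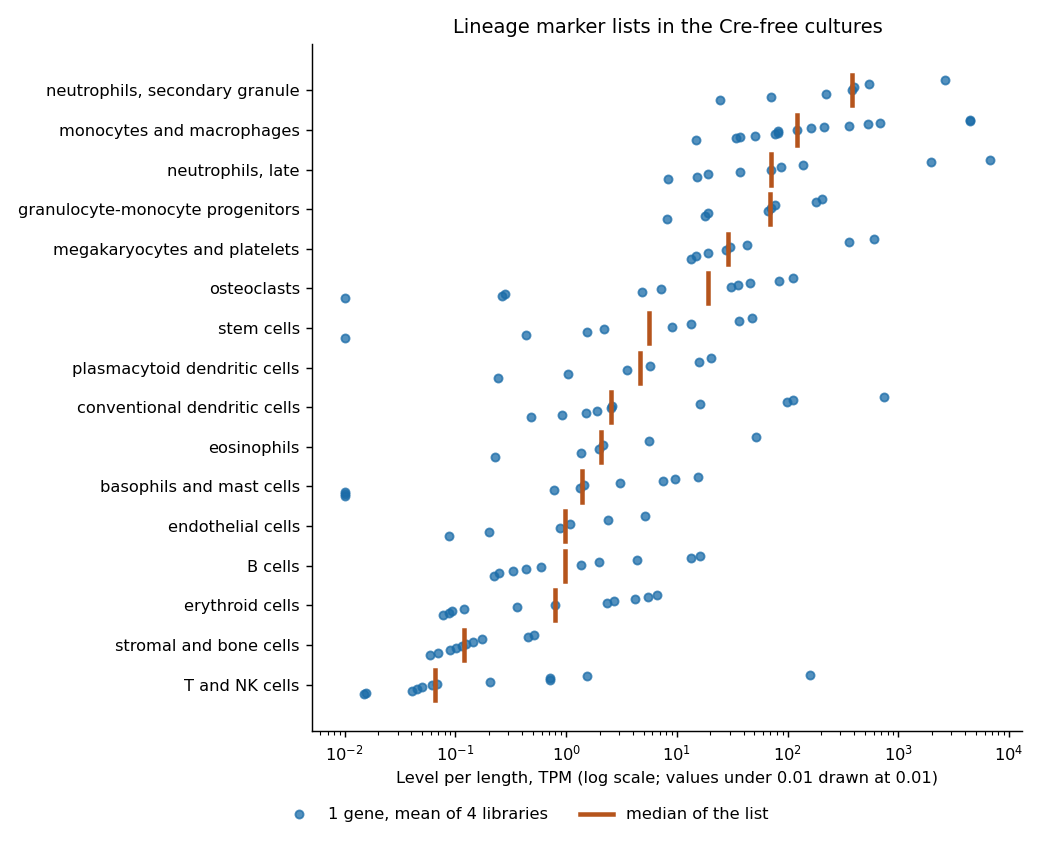
Levels per length (TPM, log scale) of the members of 16 lineage marker lists, where each blue point is the mean of 1 gene over the 4 Cre-free libraries and the orange bar the median of the list. Secondary granule genes (381 TPM) and monocyte and macrophage genes (120.4 TPM) have the highest medians, and the T and NK list has the lowest (0.0648 TPM) with the single gene Il7r far to the right.

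Megakaryocyte genes were the most complete list outside the phagocytes. All 8 of 8 had at least 1 CPM in every library. Pf4, platelet factor 4, had 132 and 157 CPM in PARP1 WT and 126 and 108 CPM in PARP2 WT, and Ppbp, the other abundant platelet chemokine, 111 and 131 CPM in PARP1 WT and 139 and 91.7 CPM in PARP2 WT. Itga2b, the integrin chain of platelets, had 59.5 to 83.3 CPM, and Vwf, the clotting protein of platelets and endothelium, 75.9 to 102 CPM. Gp9, a receptor chain that defines platelets, was lower at 6.12 to 10.4 CPM. In 7 of the 8 genes PARP2 WT replicate 2 was the lowest library. None of the 8 passed the test between the lines, against 2.98% of all genes tested. The endothelial list, whose cells also make Vwf, was low. Of its 6 genes, 3 had at least 1 CPM in all libraries, and Cdh5, a cadherin of endothelial junctions, had 1.08 to 1.72 CPM.

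Dendritic cell genes were led by the class II pathway, which macrophages share. Cd74, the class II chaperone, made up 62.5% of the summed CPM of that list and had 343 to 396 CPM, followed by H2-Aa at 116 to 142 CPM and H2-Ab1 at 71.7 to 85.1 CPM. The genes that define dendritic cells were scarce. Flt3, their growth factor receptor, had 3.01 to 6.05 CPM, Clec9a 1.69 to 3.11 CPM, Xcr1 0.947 to 1.52 CPM and Zbtb46, a transcription factor of the line, 1.10 to 1.40 CPM. By reads the plasmacytoid list was led by Tcf4, a factor with wide expression, at 45.3 to 50.3 CPM, and Siglech, a surface lectin of those cells, had 2.34 to 4.26 CPM.

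Osteoclast genes were split. No RANKL is named for these cultures. Tnfrsf11a, the receptor RANK, had 62.6 and 64.6 CPM in PARP1 WT and 66.9 and 65.1 CPM in PARP2 WT, Nfatc1, the master factor of the osteoclast, 68.5 to 73.8 CPM, Itgb3, the beta3 integrin chain, 119 to 168 CPM, and Atp6v0d2, a proton pump subunit, 65.1 to 128 CPM. The enzymes of bone resorption were lower. Ctsk, the collagen-degrading cathepsin, had 11.7 to 37 CPM, and Acp5, the acid phosphatase by which osteoclasts are stained, 2.96 to 5.75 CPM. The fusion protein Dcstamp had 2.61 to 4.74 CPM. Ocstamp, which acts with Dcstamp in fusion, had 0.243 to 0.469 CPM and Oscar, a costimulatory receptor, 0.104 to 0.209 CPM, and Calcr, the calcitonin receptor of the mature cell, had 1 count in the 4 libraries together.

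Lymphoid and erythroid genes were at trace levels. Among T and NK markers, Il7r, the interleukin-7 receptor chain of lymphoid progenitors and T cells, had 230.1 and 225 CPM in PARP1 WT and 235 and 213 CPM in PARP2 WT and made up 98.5% of the list. Without Il7r the other 11 genes summed to 3.25 to 3.69 CPM. Cd3e, a chain of the T cell receptor complex, had counts of 1 and 3 for PARP1 WT and of 0 and 6 for PARP2 WT, and Gzma, a granzyme of killer cells, had counts of 0 and 0 for PARP1 WT and of 0 and 1 for PARP2 WT. The level of Il7r thus stood without the defining T cell genes beside it. B cell genes summed to 38.3 and 32.4 CPM in PARP1 WT and 11.9 and 9.91 CPM in PARP2 WT. Among erythroid genes Klf1, the master factor of the red line, had counts of 2 and 2 for PARP1 WT and of 2 and 5 for PARP2 WT, and the alpha globin genes Hba-a1 and Hba-a2 had the same count in every library, so their reads cannot be assigned to 1 copy. Marrow stroma was also low, with 0 of 10 genes at 1 CPM in all libraries and Col1a1, the main collagen of bone, at 0.618 to 1.42 CPM.

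Of 10 basophil and mast cell genes, Prss34 and Mcpt8, proteases of basophils, had 4.05 to 7.72 CPM and 2.05 to 4.03 CPM. The mast cell proteases Mcpt4 and Cma1 had 0 counts in all 4 libraries. A count of 0 allows up to 3 counts, or 0.0521 to 0.0779 CPM depending on the library, by counting error alone. Prg2, the major basic protein of eosinophil granules, had 8.69 to 16.9 CPM and led its list. Among stem cell genes Kit, the receptor for stem cell factor, had 31 and 29 CPM in PARP1 WT and 18.5 and 18.3 CPM in PARP2 WT, Procr, which marks the most primitive cells, 27.9 to 31.8 CPM, and Mecom, a factor of stem cells, 0 to 0.0810 CPM.

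Transcription factors were measured in 63 genes, of which 55 had at least 1 CPM in all 4 libraries. Spi1 led the factors of myeloid identity per length at 248 ± 12 TPM, followed by Fli1 at 86.6 ± 6.24 TPM and Cebpa at 61.9 ± 12.6 TPM. Spi1 lay above both in every library. Cebpa directs the granulocyte and monocyte fate, and Cebpe, the factor of secondary granules, had 24.4 ± 2.06 TPM. Cebpb, a factor of emergency granulopoiesis and macrophages, had 32.3 ± 3.81 TPM. Myb and Gfi1, factors of dividing progenitors and of granulocytes, were at 7.5 ± 0.415 TPM and 6.13 ± 0.711 TPM per length.

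Among factors of monocytes and macrophages, Id2, an inhibitor of E proteins, was highest per length at 359 ± 51.7 TPM. Irf5, a factor of inflammatory macrophages, followed at 264 ± 2.75 TPM and did not differ beyond its spread from Atf3, a stress-response repressor, at 258 ± 13 TPM. By reads Zeb2, which keeps macrophage identity and has a long transcript, had the most in this class, with 401 and 425 CPM in PARP1 WT and 429 and 460.4 CPM in PARP2 WT, but per length it stood at 71 ± 2.93 TPM. Irf8, which sets the monocyte fate, had 63.7 ± 2.82 TPM, about the level of Cebpa. Irf4, which guides dendritic cells and alternative activation, stood at 4.92 ± 0.105 TPM. The factors of lysosome formation, Tfe3, Mitf, Tfec and Tfeb, lay at 52.5 ± 1.10 TPM, 28.7 ± 1.12 TPM, 18.8 ± 2.31 TPM and 17.2 ± 1.22 TPM per length.

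The highest of all 63 factors belonged to the stress response. Atf4, of the amino acid response, had 507 ± 32.8 TPM per length. Nfe2l2, of the response to oxidants, had 275 ± 13.9 TPM. The immediate early gene Fos had 174 and 148 CPM in PARP1 WT and 136 and 187 CPM in PARP2 WT, and Jun, its partner in AP-1, 136 and 167 CPM in PARP1 WT and 161 and 172 CPM in PARP2 WT. Fosb was more than 2 times apart between the PARP2 WT libraries, with 6.86 and 6.48 CPM in PARP1 WT and 1.74 and 4.71 CPM in PARP2 WT. Stat6, which carries interleukin-4 signals, led the signal-regulated factors at 224 ± 4.82 TPM. Myc, with 83.9 and 96.1 CPM in PARP1 WT and 95 and 93.1 CPM in PARP2 WT, and E2f1, with 50.2 to 52.9 CPM, were present in all libraries, whereas Mycn had 0.623 to 1.11 CPM. Of 10 factors of other lineages, 3 had at least 1 CPM in all libraries. These were Tal1, Gata1 and Gata2 of the erythroid, megakaryocyte and stem cell lines, and Tal1 made up most of the sum with 23.5 to 31.9 CPM. Gata3 and Bcl11b of T cells had 0.122 to 0.232 CPM and 0.0203 to 0.0520 CPM.

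**Figure D3:**
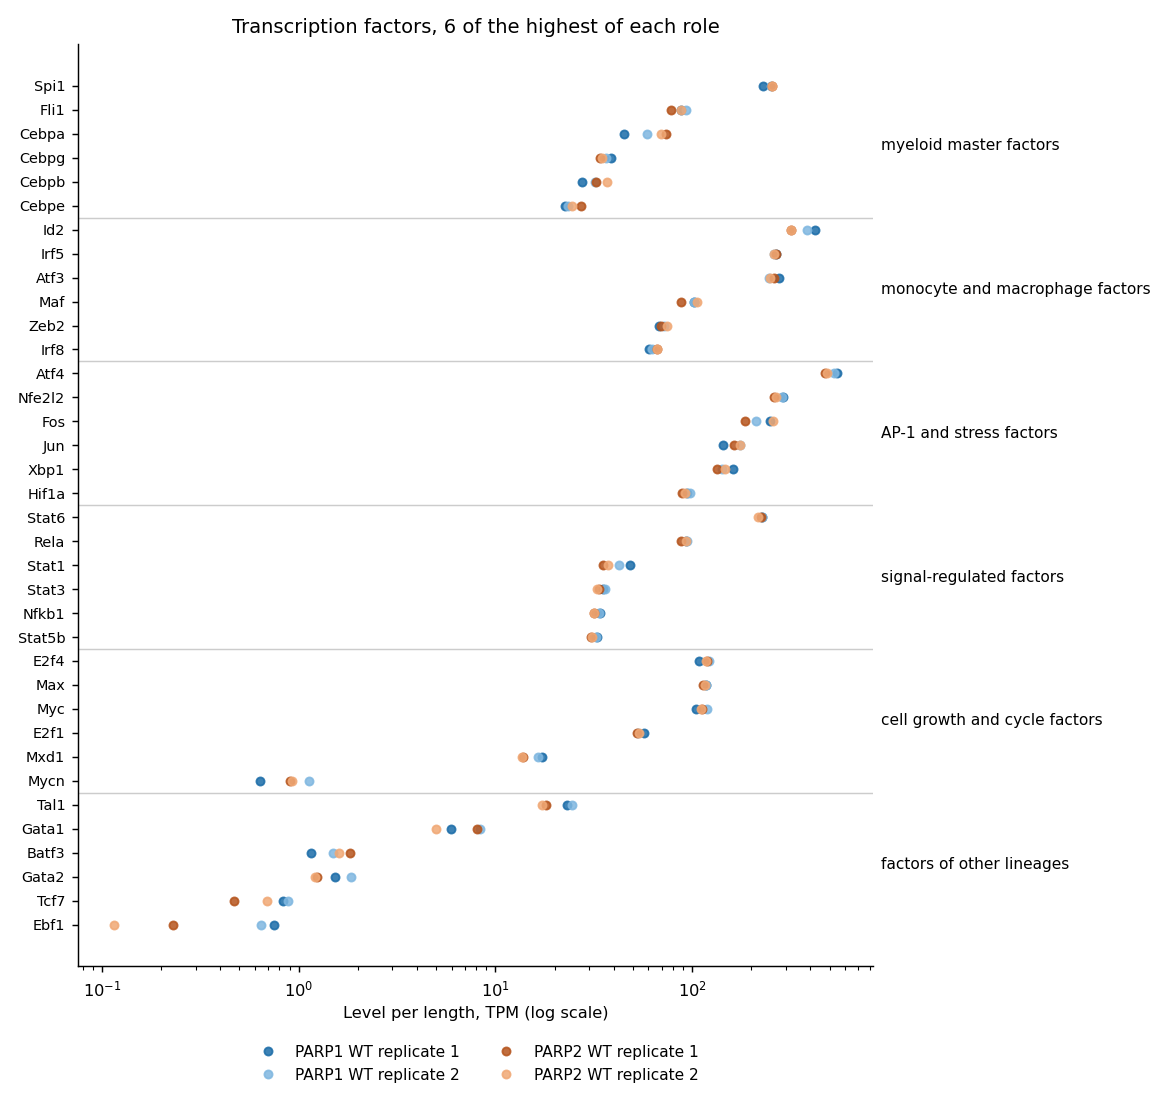
Level per length (TPM, log scale) in each of the 4 Cre-free libraries for 6 of the highest transcription factors of each role, with PARP1 WT in blue and PARP2 WT in orange. Atf4 lies furthest to the right at 507 ± 32.8 TPM, and of the factors of other lineages Tal1 alone exceeds 10 TPM.

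Of 83 receptors, 81 had at least 1 CPM in all 4 libraries, and Il1r1, the interleukin-1 receptor, was the 1 gene below that level in every library. Among the growth factor and cytokine receptors Csf1r stood apart at 688 ± 35.9 TPM per length, followed by the TNF receptors Tnfrsf1a at 212 ± 8.52 TPM and Tnfrsf1b at 198 ± 20.7 TPM and the GM-CSF receptor chain Csf2ra at 203 ± 30.8 TPM. The last 3 overlapped between libraries. Csf2ra itself was lower in PARP1 WT replicate 1, with 133 and 187 CPM in PARP1 WT and 194 and 193 CPM in PARP2 WT. Csf3r, which takes up the signal for neutrophils, had 71 ± 9.81 TPM, and Flt3 had 2.57 ± 0.735 TPM. Csf1r was thus the most abundant of the receptors for growth factors of marrow progenitors measured, and Kit and Flt3 the least abundant.

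Complement receptors led the chemoattractant receptors. C5ar1 and C3ar1, which sense the fragments C5a and C3a, had 620.3 ± 42.4 TPM and 575 ± 14.1 TPM per length, against 91.8 ± 4.24 TPM for Cxcr4, the marrow retention receptor, and 34.5 ± 1.85 TPM for Ccr2. Ccr1, a receptor for the chemokine Ccl3, had 64 ± 3.66 TPM. Fpr1 and Fpr2, which sense bacterial peptides and are typical of neutrophils, had 11.3 ± 2.98 TPM and 13.6 ± 2.58 TPM. Among the pattern recognition receptors, Clec4d, a C-type lectin, was highest at 1194 ± 23.1 TPM per length. Tlr13, which senses bacterial ribosomal RNA, followed at 363 ± 4.47 TPM, above Tlr7 at 127 ± 11.8 TPM, Tlr2 at 58.5 ± 2.47 TPM and Tlr4 at 56.1 ± 4.72 TPM. Tlr5, the flagellin receptor, was lowest at 2.71 ± 0.534 TPM.

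The phagocytic receptors had the highest levels of all receptors. The signalling adaptors Fcer1g and Tyrobp, through which Fc receptors and Trem2 signal, had 3191 ± 174 TPM and 2851 ± 74.1 TPM per length. Cd36, a scavenger receptor for oxidised lipid, had 1611 and 1620.5 CPM in PARP1 WT and 2196 and 2012 CPM in PARP2 WT. Sirpa, which receives the inhibitory signal of CD47, had 1116 ± 19.5 TPM, and Fcgr3, a low-affinity receptor for IgG, 772 ± 11.6 TPM. Trem2, of lipid-laden macrophages, had 268 ± 4.34 TPM, while Trem1, of inflammatory granulocytes and monocytes, had 6.74 ± 0.740 TPM. Marco, a scavenger receptor for particles, varied most, with 12.9 and 25.4 CPM in PARP1 WT and 42 and 49.5 CPM in PARP2 WT. Of the integrins Itgb2 at 1042 ± 27 TPM and Itgam at 626 ± 11.4 TPM per length form the pair CD11b and CD18. The alpha chains Itgal and Itgax, which also pair with Itgb2, had 39.5 ± 3.98 TPM and 14.8 ± 2.30 TPM.

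**Figure D4:**
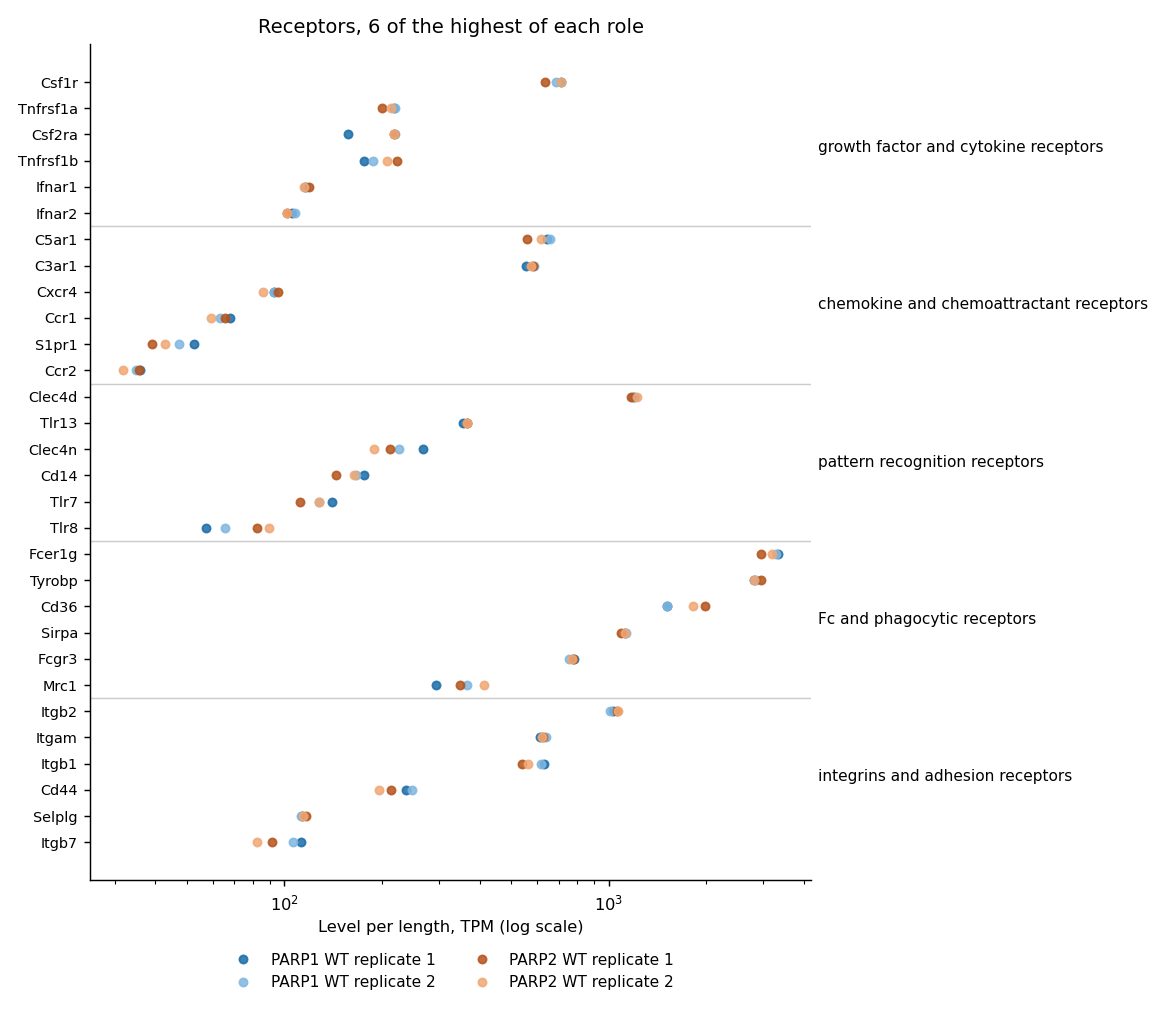
Level per length (TPM, log scale) in each of the 4 Cre-free libraries for 6 of the highest receptors of each role, with PARP1 WT in blue and PARP2 WT in orange. Fcer1g (3191 ± 174 TPM) and Tyrobp (2851 ± 74.1 TPM) lie furthest to the right, and Cd36 and Tlr8 show both PARP2 WT libraries to the right of both PARP1 WT libraries.

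The ligands of these receptors were less completely present. Of 12 genes, 6 had at least 1 CPM in all 4 libraries. Tgfb1, the gene of transforming growth factor beta 1, had 192 and 236 CPM in PARP1 WT and 239.8 and 239 CPM in PARP2 WT, and Tnf, which acts on both TNF receptors, had 61.5 and 64.5 CPM in PARP1 WT and 66.8 and 70.7 CPM in PARP2 WT. Csf1, the gene of M-CSF itself, had 33.9 and 19.5 CPM in PARP1 WT and 11.6 and 14.6 CPM in PARP2 WT, with both PARP2 WT libraries below both PARP1 WT libraries, and did not pass the test between the lines. Kitl, the ligand of Kit, had 21.3 and 20.7 CPM in PARP1 WT and 28.2 and 26.8 CPM in PARP2 WT. It was the 1 of the 6 ligands tested that was called between the lines, against 2.98% of all genes, higher in PARP2 WT by 0.39 on the log2 scale (adjusted p = 0.0246 from edgeR), and did not pass with all 8 libraries or without PARP1 WT replicate 1, PARP1 WT replicate 2 or PARP2 WT replicate 1. The genes of GM-CSF, G-CSF and interleukin-3 (Csf2, Csf3 and Il3), of interleukin-34 (Il34), which also binds Csf1r, and of RANKL (Tnfsf11) were near or at 0, with at most 0.0695 CPM in any library for Il34, the highest of them.

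The cultures held RNA of dividing cells. All 20 genes of DNA replication and mitosis had at least 1 CPM in every library. None passed the test between the lines, against 2.98% of all genes tested. Pcna, the clamp of DNA polymerase, had 542 and 544 CPM in PARP1 WT and 534 and 525 CPM in PARP2 WT. Mki67, the proliferation antigen, had 769 and 829.9 CPM in PARP1 WT and 734 and 745 CPM in PARP2 WT, and Top2a, a topoisomerase of dividing cells, 316 to 349 CPM. Per length the replication genes had a sum of 1642 ± 72.7 TPM and the mitosis genes a sum of 1000.2 ± 68.8 TPM.

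The 2 lines were then compared, to see which of these levels held in both. PARP2 WT was set against PARP1 WT with edgeR's quasi-likelihood test and Benjamini-Hochberg adjustment at a threshold of 0.05. Of 12972 genes tested, 387 (2.98%) were called, 238 higher in PARP2 WT (1.83%) and 149 lower (1.15%). The median log2 fold change of all genes was 0.00. The line, its litters and any day of culture cannot be told apart. The lists were chosen with earlier results of these data known. The shares called in them are therefore descriptions, and enrichment of a list was not tested. With 2 libraries per line, an exact permutation test of a single gene cannot go below a two-sided p of 0.333, so p-values come from the fit across genes. Within the lines the libraries lay close. Of 11431 genes with a mean of at least 1 CPM, 30 were at least 2 times apart between the PARP1 WT replicates and 25 between the PARP2 WT replicates, and Pearson correlations of log2 CPM across genes, which are not independent replicates, were 0.997 and 0.998. Among the list genes such a spread was seen in PARP2 WT for Hdc, which makes histamine, at 5.56 and 0.985 CPM, for Epx, the eosinophil peroxidase, at 1.84 and 0.58 CPM, and for Fosb. The count of genes called between the lines rested in large part on PARP1 WT replicate 1, the library with the fewest counts, and without it 34 genes were called, against 237 without PARP1 WT replicate 2. Of the 61 called genes that belong to the lists or differed most, 5 also passed without PARP1 WT replicate 1, Ifi202b, Egr2 and Fabp4 among them, and none changed sign.

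Of the 5 genes that mark the cultures, Lyz2 was called. It went from 6081 ± 481 CPM in PARP1 WT to 10318 ± 766 CPM in PARP2 WT (SD, n = 2), a change of 0.76 on the log2 scale (SE 0.0708, adjusted p = 0.00484) in the edgeR fit, and the libraries of the lines did not overlap. Over all genes tested, both PARP2 WT libraries lay above both PARP1 WT libraries in 26.8% and below them in 25.3%. Without PARP1 WT replicate 1 Lyz2 did not pass, although its log2 fold change was still 0.68. Lyz1 changed by 0.77 on the log2 scale (adjusted p = 0.00298 in the edgeR fit of all 4 libraries). Csf1r, Spi1, Itgam and Ly6c2 did not pass, with log2 fold changes of 0.01, 0.13, 0.05 and 0.21 and adjusted p-values of 0.954, 0.262, 0.619 and 0.0862 from edgeR.

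In the monocyte and macrophage list 2 of 15 genes tested were higher in PARP2 WT, among them Mertk by 0.76 on the log2 scale, and none was lower, against 1.83% higher and 1.15% lower over all genes. Neither call held without PARP1 WT replicate 1, and that of Mertk did not hold without PARP1 WT replicate 2 either. The list median was 0.11. In the progenitor list 3 of 8 were higher, Elane, Prtn3, a granule protease, and Fcnb, a ficolin. Fcnb had 17.9 and 21.3 CPM in PARP1 WT and 37.4 and 32.6 CPM in PARP2 WT, and the list median was 0.36. Camp was higher and was the 1 gene called among 7 of the secondary granules (median 0.22). Of 9 late neutrophil genes 2 were lower in PARP2 WT, Mmp9 and Retnlg, a resistin-like gene of mature neutrophils, and the median was -0.27. None of these 6 granule genes passed without PARP1 WT replicate 1 (adjusted p from 0.0769 to 0.203 in edgeR), and a test of the difference between the lists was not made. Retnlg had 20.1 and 19.5 CPM in PARP1 WT and 9.89 and 13 CPM in PARP2 WT.

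All 8 B cell genes that passed the filter on low counts were lower in PARP2 WT, with a list median of -1.89, against 1.15% lower over all genes tested. The other 2 genes, Vpreb1 and Igll1, had 0.101 to 0.156 CPM and 0.0580 to 0.312 CPM and were not tested. Rag1, Pax5 and Vpreb3 lay under 1 CPM in PARP2 WT and passed the filter through PARP1 WT, and none of the 8 genes passed the test without PARP1 WT replicate 1. Rag1, which cuts the antigen receptor genes of lymphoid precursors, had counts of 97 and 90 for PARP1 WT and of 10 and 8 for PARP2 WT. Pax5, the factor of B cell identity, had counts of 46 and 53 for PARP1 WT and of 9 and 11 for PARP2 WT. Cd79a, a signalling chain of the B cell receptor, had 9.85 and 8.25 CPM in PARP1 WT and 2.76 and 2.43 CPM in PARP2 WT (adjusted p = 0.00298 from edgeR). The 2 lines did not overlap in any of these 3 genes. Over all genes tested, both PARP2 WT libraries lay below both PARP1 WT libraries in 25.3%. The amounts of B cell RNA were small beside the summed CPM of the phagocyte lists. Kit, at 29.98 ± 1.39 CPM and 18.4 ± 0.140 CPM, was the 1 of 7 stem cell genes called, and the 5 T and NK genes tested had a median of -0.09 with none called. Of 7 erythroid genes tested 2 were lower in PARP2 WT, Hba-a1 and Hba-a2, both by -1.31 on the log2 scale. Their counts were the same in every library, so this is 1 measurement and not 2 separate calls. Cpa3 of the basophil and mast cell list (-0.96), Cd209a of conventional dendritic cells (-0.88) and Ly6d of plasmacytoid cells (-1.43) were lower too. Kit, Hba-a1, Hba-a2, Cpa3, Cd209a and Ly6d kept their direction without PARP1 WT replicate 1 but did not pass there. Cpa3 and Cd209a did not pass with all 8 libraries either.

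Osteoclast genes were called in 3 of 8 cases, all higher in PARP2 WT, against 1.83% higher over all genes. None of the 3 passed without PARP1 WT replicate 1 or without PARP1 WT replicate 2, and Acp5 did not pass with all 8 libraries. Ctsk had 11.7 and 12.4 CPM in PARP1 WT and 37 and 23 CPM in PARP2 WT, Atp6v0d2 67.5 and 65.1 CPM in PARP1 WT and 107 and 128 CPM in PARP2 WT and Acp5 2.96 and 3.44 CPM in PARP1 WT and 5.75 and 5.66 CPM in PARP2 WT. The list median was 0.31, and Tnfrsf11a and Nfatc1 had log2 fold changes of 0.05 and -0.06 that did not pass. Of the lysosomal genes 4 of 14 were higher, among them Lyz2, Lyz1 and Ctsl, a cysteine protease, and none of these 3 passed without PARP1 WT replicate 1. Ctsl had 665 and 714 CPM in PARP1 WT and 918 and 876 CPM in PARP2 WT.

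Of 61 transcription factors tested, 3 were higher in PARP2 WT, Egr2 and Bhlhe40 among them, and 4 lower, Id2, Tal1, Ebf1 and Pax5, against 1.83% higher and 1.15% lower over all genes. Of these 7 Egr2 alone passed without PARP1 WT replicate 1. Egr2, a zinc finger factor of macrophage fate, had 4.62 and 4.70 CPM in PARP1 WT and 10.9 and 11.2 CPM in PARP2 WT, a change of 1.25 on the log2 scale (SE 0.0913, adjusted p = 0.00249) in the edgeR fit, and passed under all alternatives (adjusted p from 4.61e-23 to 0.0464). The factors of myeloid identity had none called among 10, with a median of 0.04. Of 83 receptors tested, 7 were higher and 4 lower, against 1.83% higher and 1.15% lower over all genes. These calls did not hold without PARP1 WT replicate 1. The higher ones were Il3ra, Tnfrsf1b, Cmklr1, Tlr8, Clec7a, Cd36 and Mertk, and the lower ones included Kit, Clec4e and Cd300lf. Clec7a, the receptor for fungal glucan, had 27 and 39.8 CPM in PARP1 WT and 64.6 and 59.7 CPM in PARP2 WT, and Clec4e, a receptor for mycobacterial glycolipid, had 103 and 88.9 CPM in PARP1 WT and 65.4 and 69.6 CPM in PARP2 WT. No integrin was called among 12.

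**Figure D5:**
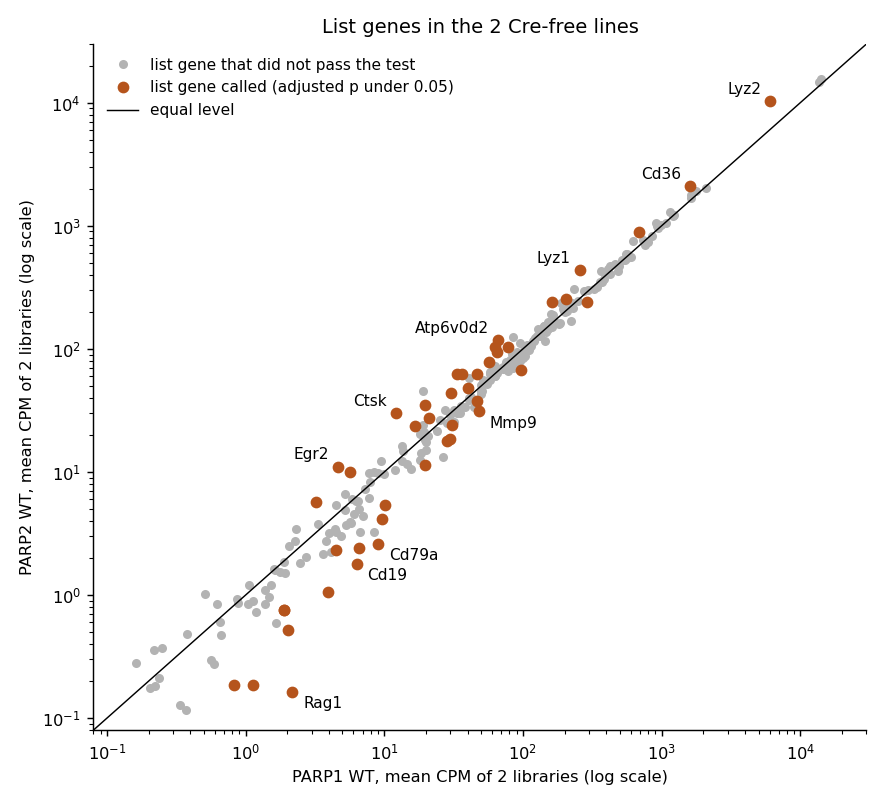
Mean CPM in PARP2 WT against PARP1 WT (2 libraries each, log scales) for the list genes tested, with genes called at an adjusted p under 0.05 in orange and the line of equal level in black. Most genes lie on the line, Lyz2 lies above it at the upper end (6081 ± 481 CPM and 10318 ± 766 CPM) and the B cell genes lie below it at the lower end.

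The 5 called genes that differed most in each direction, chosen among those whose lines did not overlap, were mostly scarce. Higher in PARP2 WT were Ifi202b, Ccnb1ip1, Rnase2a, Pla1a and Sncg, and lower were Rag1, Pax5, Rasd2, Rd3 and Vpreb3. Ifi202b, an interferon-inducible gene of the HIN-200 family on chromosome 1 from 173962568 to 173982744, had counts of 0 and 0 for PARP1 WT and of 1150 and 1028 for PARP2 WT. Its level was at least 287-fold higher in PARP2 WT, taking 3 counts per library as the floor. Ccnb1ip1, a ubiquitin ligase of meiosis, had counts of 0 and 0 for PARP1 WT and of 41 and 29 for PARP2 WT and was at least 9.18-fold higher on the same floor. Pla1a, a phospholipase, had counts of 2 and 0 for PARP1 WT and of 26 and 21 for PARP2 WT, a ratio of 18.9 with an exact 95% counting interval of 4.95 to 161. Of the 10 genes, Ifi202b alone passed without PARP1 WT replicate 1. Ccnb1ip1, Rnase2a, Pla1a, Rd3 and others of them passed the filter on low counts through the line in which they were high. Ccnb1ip1, Rnase2a and Sncg lie on chromosome 14, as does Parp2. Ccnb1ip1 ends at 50807732, next to the start of Parp2 at 50807841, and Rnase2a runs from 51255262 to 51256112. Both lie within 10 Mb of Parp2, and Ifi202b lies within 10 Mb of Parp1 on chromosome 1. The others of the 10 genes, Sncg included, lie outside these windows.

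Parp1, on chromosome 1 from 180568924 to 180601254, had 203 and 212 CPM in PARP1 WT and 253 and 156 CPM in PARP2 WT. Its replicates differed most in PARP2 WT, and its log2 fold change between the lines was -0.02 (adjusted p = 0.966 from edgeR). Without PARP2 WT replicate 1 it was -0.41 and passed, with an adjusted p of 0.0163, the lowest in a range of 0.0163 to 0.997 over the alternatives. Parp2, on chromosome 14 from 50807841 to 50821301, had 39.3 and 41 CPM in PARP1 WT and 48.4 and 48.6 CPM in PARP2 WT and was called higher in PARP2 WT, by 0.27 on the log2 scale (SE 0.0466, adjusted p = 0.0324) in the edgeR fit. It did not pass when any 1 of the 4 libraries was left out, and its adjusted p ranged from 0.000409 to 0.151 over the alternatives. Within 10 Mb of Parp1, 15 of 128 genes tested were called (11.7%), against 2.90% elsewhere. Within 10 Mb of Parp2, 18 of 150 were called (12%), against 2.87% elsewhere. The sequence of these regions was not analysed here.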

How the data were processed

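Gene expression was measured by RNA-seq in 8 libraries, of which the 4 Cre-free ones were analysed. Per the labels the libraries were made with a strand-specific total RNA kit. The submitters' processing notes name FastQC (0.11.2) and edgeR, and the study's methods state that reads were aligned to mm10 with TopHat2 (2.0.12), duplicates were marked with Picard (1.127) and genes were counted with featureCounts of Subread. The deposited values are raw read counts per gene made by the authors. The annotation, the strand setting and whether marked duplicates were counted are not given in the sources used here, so reads of overlapping genes and of near-identical copies may be split or shared. CPM were computed with TMM-scaled library sizes, which differed from the totals by under 2%. TPM used exon lengths of the GENCODE M21 annotation of GRCm38, matched for 23666 of 24062 genes (22750 by symbol and 916 by a synonym). A gene without a length has no TPM. Exon lengths cover all annotated transcripts, so TPM of a gene that uses a short transcript are too low.

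PARP2 WT was compared with PARP1 WT in edgeR (4.0.16, R 4.3.3) with the quasi-likelihood test on the 4 libraries, genes kept by filterByExpr and Benjamini-Hochberg adjustment over the 12972 genes tested. DESeq2 (1.42.0) and the other alternatives are given in the closing section. Intervals and floors cover counting error only. Named genes were the 5 markers, the most abundant genes, the leading and called members of the lists, and the 5 called genes that differed most in each direction with lines that did not overlap. The members and lists were chosen with earlier results of these data known. Replicates were distinct libraries, with chi-square values per gene of 10.2 and 8.32. Ly6g and Ahsp were not analysed here, and some members of the lists are counted but not reported by name.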

Additional observations from a re-analysis of the deposited data

How the results depend on the processing

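The number of genes called between the lines was 387 with edgeR's quasi-likelihood test and stayed within 1.5 times of that with DESeq2's size factors (409), library sizes without a composition factor (426), DESeq2 (566), a filter of 1 CPM in 2 libraries (358) and all 8 libraries (417). It was 1052 with the likelihood-ratio test and 917 with no filter on low counts, for which the cause was not tested. Leaving out a library, which leaves 1 line with a single library that is assumed to vary like the other, gave 34 to 334. The lowest count came without PARP1 WT replicate 1, where 5 of the 61 called genes that belong to the lists or differed most were still called, Ifi202b, Egr2 and Fabp4 among them. Without a composition factor the split was 200 higher and 226 lower, against 238 and 149, and the median log2 fold change of all genes moved to -0.04. None of these 61 genes changed sign under any alternative run. The replicate numbers share only a number, as the deviations of same-numbered libraries correlated at -0.0955, and with the replicate as a block 475 genes were called, 353 of them shared with the fit without it. The levels of the 5 markers and the summed levels of the lists moved by less than the spread between libraries under each scaling. Without their leading genes the T and NK list went from place 8 to place 15 of the 16 lists by summed CPM. Precision is limited by 2 libraries per line, and for genes at 0 by a floor of 0.0521 to 0.0779 CPM.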

Other observations

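Several gene groups outside the lists above, chosen after the data were seen, concern lipid and iron. Of 15 genes of lipid uptake, storage and breakdown, all had at least 1 CPM in all 4 libraries. Cd36 had 1706 ± 228 TPM per length, Lpl 1126 ± 165 TPM, Lipa, the acid lipase of the lysosome, 1085 ± 10.3 TPM and Fabp5, a fatty acid carrier, 989 ± 248 TPM. In edgeR's test 7 of the 15 were higher in PARP2 WT and none lower, against 1.83% higher over all genes tested. These were Lpl, Cd36, Apoe, Fabp4, Fabp5, Plin2 and Nr1h3. Fabp4 had 36.5 and 31.9 CPM in PARP1 WT and 82.7 and 76.6 CPM in PARP2 WT, and Apoe, a carrier of cholesterol, 351 and 408 CPM in PARP1 WT and 613 and 689 CPM in PARP2 WT. The list median was 0.35 on the log2 scale. Without PARP1 WT replicate 1 Fabp4 was the 1 of the 7 that passed, without PARP1 WT replicate 2 Fabp4, Apoe and Plin2 passed, and with all 8 libraries Lpl and Nr1h3 did not pass (adjusted p = 0.135 and 0.0744 in edgeR). Lipa and Abca1, the exporter of cholesterol, did not pass, with log2 fold changes of 0.06 and 0.15. Beside the ferritin chains, Hmox1, which breaks down haem, had 1247 and 1480.3 CPM in PARP1 WT and 1763 and 1805 CPM in PARP2 WT. Tfrc, the transferrin receptor that takes up iron, was higher in PARP2 WT with 381 and 388 CPM in PARP1 WT and 533 and 500.3 CPM in PARP2 WT, and Slc40a1, the only known exporter of iron, was lower with 419.7 and 371 CPM in PARP1 WT and 285 and 289 CPM in PARP2 WT. Neither passed without PARP1 WT replicate 1.

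Components of complement were made beside its receptors. C1qb, C1qc and C1qa, the chains of C1q, had 1274 ± 93.1 TPM, 314 ± 31.1 TPM and 127 ± 24.8 TPM per length, and C3 had 84.9 ± 6.92 TPM. Cfp, which encodes properdin and stabilises the C3 convertase, was higher in PARP2 WT with 263 and 266 CPM in PARP1 WT and 315 and 341 CPM in PARP2 WT, and did not pass without PARP1 WT replicate 1. Of 15 chemokine ligands none was called, against 2.98% of all genes tested. The monocyte attractants Ccl2 and Ccl7 had 1279.7 ± 89 TPM and 860.3 ± 73.9 TPM per length. Ccl6 had 105 and 96.4 CPM in PARP1 WT and 54.4 and 105 CPM in PARP2 WT, so that PARP2 WT replicate 1 was the lowest library.

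Single genes stood out by their spread. Cwc22, a splicing factor, had 115 and 508 CPM in PARP1 WT and 507 and 972 CPM in PARP2 WT, so that the replicates of each line were far apart. Apobec1, an RNA editing enzyme, had 611 and 232 CPM in PARP1 WT and 247 and 245 CPM in PARP2 WT, with PARP1 WT replicate 1 alone above the others. The small structural RNAs Rmrp and Rpph1 were also uneven. Rmrp, of the RNase MRP complex, had 0.0520 and 0.0405 CPM in PARP1 WT and 8.67 and 0.734 CPM in PARP2 WT. Rpph1, of RNase P, had 4.39 and 8.69 CPM in PARP1 WT and 8.07 and 1.06 CPM in PARP2 WT. The 4 genes of the Y chromosome measured were present at like levels in all libraries, with Ddx3y at 81 to 96.3 CPM, and Xist had 0 to 0.0580 CPM. By Dixon's test, which sets the gap to the outermost library against the range, none of 21 values had a library set apart from the other 3. These were the 5 markers and the 16 summed lineage lists. With 4 libraries the test finds only a large gap, and a split between the lines widens the range, so no conclusion is drawn from it.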
